A study of Arabidopsis thaliana with 24 samples.

Results

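The transcripts described here came from 4 genes of the iron-deficiency response of Arabidopsis thaliana, namely AT1G47400, AT5G05250, PYE (AT3G47640) and ILR3 (AT5G54680). Each gene was read by 1 probe set annotated to it alone, so the members were 4 of the 13356 genes with a probe set of their own. All 4 passed the filter on low values, which kept 11926 probe sets. AT1G47400 and AT5G05250 were chosen by their measured midnight values, the difference between the water regimes, and the midnight differences of all 4 genes are therefore given as a description with no test.

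Wild-type Columbia-0 plants were grown under a 12 h photoperiod after 3 days of stratification. They were sampled as whole rosettes at an age of 32 days on 24 Affymetrix arrays. Well-watered plants were watered for 32 days. For water-limited plants, 28 days of watering were followed by 4 days without water. Rosettes were collected at 6 h (pre-dawn), 12 h (midday), 18 h (late day) and 0 h (midnight), with 3 arrays in each of the 8 groups of time and regime. The labels call the 3 arrays biological replicates without saying how many plants each held.

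Plants that run short of iron switch on genes for its uptake and redistribution through a cascade of basic helix-loop-helix (bHLH) transcription factors. ILR3 (bHLH105) stands near the top of that cascade with its close relatives bHLH34, bHLH104 and bHLH115, and forms dimers with PYE (POPEYE), a bHLH protein whose own transcript is induced when iron is scarce. Small peptides of the IRON MAN family, to which the AT1G47400 product belongs, help to keep the cascade on by binding the ubiquitin ligase BTS, which otherwise promotes the breakdown of ILR3 and some of its relatives. AT5G05250 encodes a protein whose role is not established and whose transcript is induced by iron deficiency. In leaves, iron is needed above all by the photosynthetic machinery of chloroplasts.

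Transcripts of AT1G47400, AT5G05250 and PYE were lower in water-limited than in well-watered rosettes at both night-time samplings, while ILR3 was higher. The differences between regimes were −2.92 log2 for AT1G47400, −1.32 for AT5G05250, −1.10 for PYE and 0.32 for ILR3 at midnight. Before dawn, AT1G47400 and AT5G05250 fell and ILR3 rose under water limitation, with PYE in the same direction as the first pair but not past the threshold. In the daytime no member differed between the regimes past that threshold, and at midday 0 of the 11926 probe sets did. No pre-dawn difference of a member was set apart from its midday or late-day difference past the threshold either (limma adjusted p of 0.0692 or more). The 6 other iron genes that could be tested had midnight differences between −0.27 and 0.31 log2, and none of them passed the test at that time. Since the midnight difference chose AT1G47400 and AT5G05250, setting the members beside these 6 genes at midnight is not a test.

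**Figure D1:**
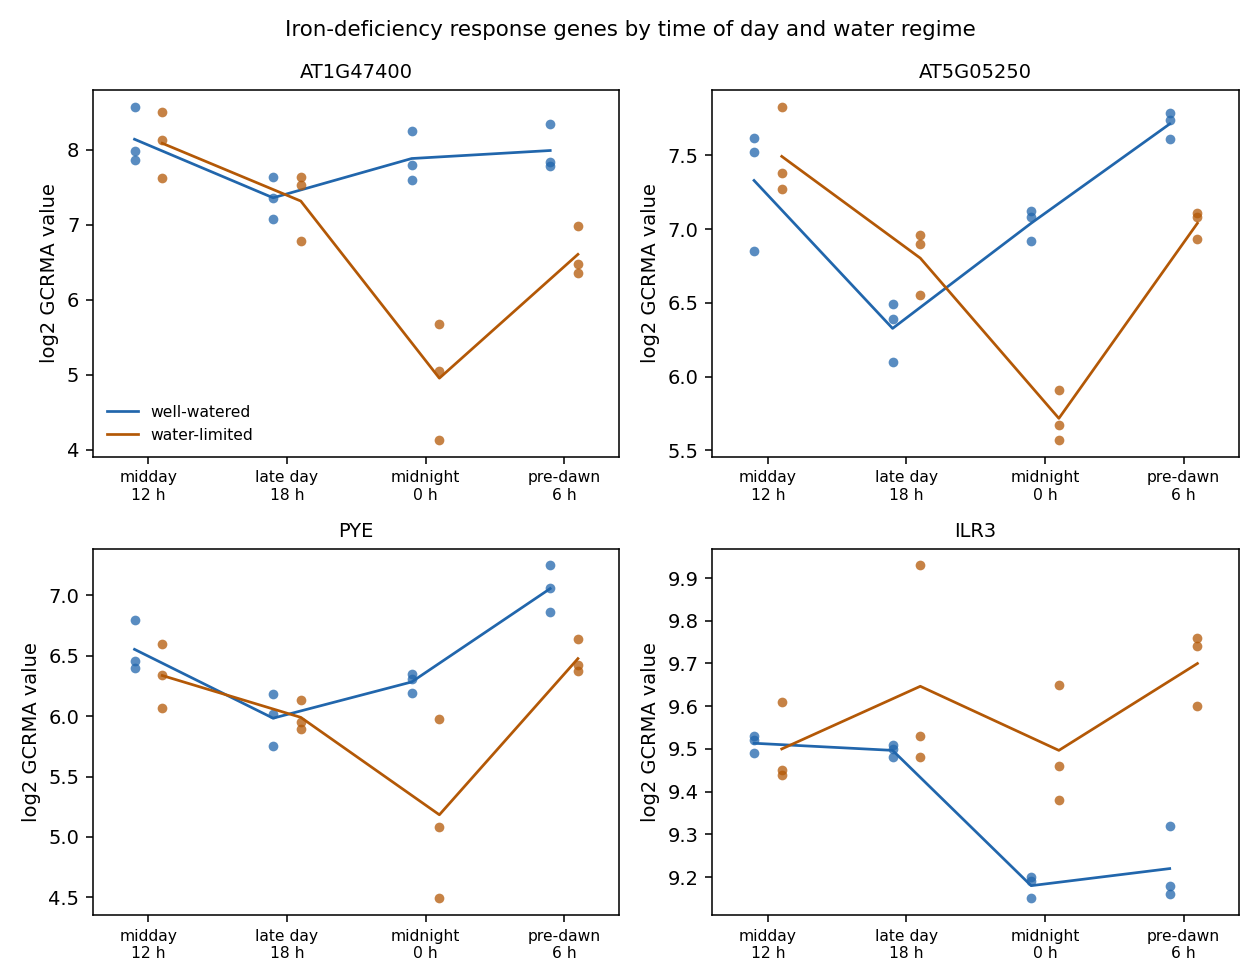
Log2 GCRMA value of each member on every array (points, n = 3 per group) against time of day, with lines through the group means, in well-watered and water-limited rosettes. At midnight the water-limited arrays of AT1G47400, AT5G05250 and PYE lie below all well-watered ones, by −2.92, −1.32 and −1.10 log2 on average, and those of ILR3 lie above; each panel has its own vertical scale.

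All values are log2 signals as the authors computed them, and differences are water-limited minus well-watered. A value can be compared between arrays for 1 probe set, and levels of different genes cannot be set against each other. Standard errors (SE) of differences came from limma, fitted to the 24 arrays together, and its adjusted p is by Benjamini-Hochberg over the 11926 probe sets, with a threshold of 0.05. The SE rests on a spread shared by all 8 groups. For AT1G47400 and PYE the water-limited midnight arrays were more scattered (SD 0.78 and 0.75 log2) than the well-watered ones (0.33 and 0.08). The SE therefore understates the uncertainty of these midnight differences. Array medians lay between 4.66 and 4.86 log2. Of 7 leaf markers 2 had a named probe set, RCA (rubisco activase) and SBPASE (a Calvin cycle phosphatase), with means of 14.20 and 12.25 log2. Of 10 root markers 3 had a named probe set, and the root-hair expansins EXPA7 and EXPA18 stayed between 2.20 and 2.35 log2, close to the table's lowest value of 2.1961, on all 24 arrays. The beta-glucosidase gene PYK10, the remaining root marker with a named probe set, ranged from 4.59 to 8.04 log2. Its late-day values were 4.59 to 5.73 log2 in water-limited and 6.80 to 7.60 in well-watered rosettes. That late-day difference of −1.99 log2 did not pass the threshold (limma adjusted p = 0.193), nor did those of 0.19, −0.64 and −0.39 at midday, midnight and pre-dawn. The phloem sugar transporter gene SWEET11 was the only one of 5 phloem markers with a named probe set, and ranged from 10.78 to 12.32 log2. At midnight SWEET11 lay at 11.17 to 11.49 log2 in water-limited and 10.78 to 10.97 in well-watered rosettes. The ranges did not overlap, an upward separation seen in 5.97% of all probe sets. The difference of 0.44 did not pass (limma adjusted p = 0.289) and was opposite in sign to those of AT1G47400, AT5G05250 and PYE. RCA and SBPASE differed by −0.33 and −0.28 log2 at midnight (limma adjusted p = 0.356 and 0.487). These 2 and PYK10 had the same sign as AT1G47400, AT5G05250 and PYE at midnight. The part of these markers in the members' differences was not tested. In bulk rosettes, fewer cells of a type and less RNA per cell cannot be told apart.

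AT1G47400 codes for the peptide of the set. In well-watered rosettes the midday values were 7.86, 7.98 and 8.57 log2, the late-day values 7.36, 7.63 and 7.08, the midnight values 7.60, 8.25 and 7.79 and the pre-dawn values 7.84, 7.78 and 8.34. In water-limited rosettes the midday values were 7.62, 8.50 and 8.13 log2, the late-day values 7.63, 7.53 and 6.78, the midnight values 4.13, 5.05 and 5.68 and the pre-dawn values 6.36, 6.98 and 6.47. The 3 water-limited midnight arrays were the lowest of all 24, and the regimes overlapped at midday and late day but not at midnight or pre-dawn. 

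The midnight mean of AT1G47400 was 7.88 ± 0.33 log2 (SD, n = 3) with full watering and 4.95 ± 0.78 under water limitation, a difference of −2.92 (SE 0.33, 7.59-fold lower), which ranked 1 among the 11926 probe sets ordered from the most lowered. This difference chose the gene and is not a test of it. The lowest water-limited midnight array, at 4.13 log2, lay under the 5 log2 of the filter and under the array medians of 4.66 to 4.86. The part of such low signal in the fold size was not tested. At pre-dawn AT1G47400 fell by 1.38 log2, with means of 7.98 ± 0.31 and 6.60 ± 0.33 (SE 0.33, 95% interval −2.07 to −0.69, 2.6-fold lower, limma adjusted p = 0.0164). The midnight arrays did not enter this difference, but they entered the shared spread behind its SE. All members were chosen with earlier results of these data known, so their pre-dawn tests are not fully independent of that choice. AT1G47400 differed by −0.06 at midday (95% interval −0.75 to 0.63, adjusted p = 0.999) and by −0.05 at late day (95% interval −0.74 to 0.64, adjusted p = 0.982) in limma. The 4.95 log2 mean of water-limited midnight rosettes was 1.65 below that of water-limited pre-dawn rosettes, with no overlap of arrays, whereas the other 6 neighbouring groups in the order of AT1G47400 levels overlapped.

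AT1G47395, the neighbouring gene, encodes a similar peptide of the same family. No probe set was named for AT1G47395, and whether the AT1G47400 probe set also reads its transcript was not tested.

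AT5G05250 had the same order of regimes at night on a smaller scale. With full watering the midday values were 6.85, 7.62 and 7.52 log2, the late-day values 6.39, 6.10 and 6.49, the midnight values 6.92, 7.08 and 7.12 and the pre-dawn values 7.61, 7.79 and 7.74. Under water limitation the midday values were 7.38, 7.27 and 7.83 log2, the late-day values 6.55, 6.96 and 6.90, the midnight values 5.57, 5.67 and 5.91 and the pre-dawn values 7.11, 7.08 and 6.93. The water-limited arrays lay below the well-watered ones at midnight and pre-dawn, above them at late day (as in 7.29% of all probe sets), and among them at midday.

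At midnight the AT5G05250 mean was 7.04 ± 0.10 log2 with full watering and 5.72 ± 0.18 under water limitation (SD, n = 3), a difference of −1.32 (SE 0.19, 2.5-fold lower), again given without a test. At pre-dawn AT5G05250 fell by 0.67 log2 (SE 0.19, 95% interval −1.06 to −0.28, 1.6-fold lower, limma adjusted p = 0.0344). The late-day difference of 0.47 (95% interval 0.08 to 0.86) did not pass the threshold over all probe sets (limma adjusted p = 0.425), nor did that of 0.16 at midday (adjusted p = 0.999). A measure of RNA degradation, the 3-prime minus 5-prime difference of control probe sets, was also read at late day. For GAPDH it was 1.50 to 1.75 log2 in water-limited and 1.26 to 1.46 in well-watered rosettes, and for actin 4.02 to 4.25 and 3.80 to 3.93. The ubiquitin ranges overlapped, at 1.05 to 1.27 and 1.15 to 1.24. The part of RNA degradation in the AT5G05250 difference was not tested.

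PYE, the bHLH regulator that is itself induced by iron deficiency, was lower at night as well. With full watering the midday values were 6.40, 6.80 and 6.46 log2, the late-day values 6.02, 6.18 and 5.75, the midnight values 6.35, 6.31 and 6.19 and the pre-dawn values 7.25, 7.06 and 6.86. Under water limitation the midday values were 6.60, 6.07 and 6.34 log2, the late-day values 6.13, 5.89 and 5.95, the midnight values 5.08, 5.98 and 4.49 and the pre-dawn values 6.37, 6.64 and 6.42. The regimes did not overlap at midnight or pre-dawn, and the water-limited midnight arrays of PYE were the most scattered of its 8 groups.

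The midnight mean of PYE was 6.28 ± 0.08 log2 with full watering and 5.18 ± 0.75 under water limitation (SD, n = 3), a difference of −1.10 (SE 0.25, 2.15-fold lower). The size of it rested in part on single water-limited arrays, with −0.76 log2 without replicate 3, at 4.49, and −1.50 without replicate 2, at 5.98. Replicate 3 also lay under the 5 log2 of the filter. The pre-dawn difference of PYE was −0.58 (SE 0.25, 95% interval −1.09 to −0.07) and did not pass the threshold over all probe sets (limma adjusted p = 0.146). PYE differed by −0.21 at midday (95% interval −0.73 to 0.30) and by 0.01 at late day (95% interval −0.51 to 0.52), with a limma adjusted p of 0.999 at both times.

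ILR3, the dimer partner of PYE, ran the other way. With full watering the midday values were 9.53, 9.52 and 9.49 log2, the late-day values 9.50, 9.51 and 9.48, the midnight values 9.20, 9.15 and 9.19 and the pre-dawn values 9.18, 9.32 and 9.16. Under water limitation the midday values were 9.61, 9.45 and 9.44 log2, the late-day values 9.48, 9.93 and 9.53, the midnight values 9.46, 9.38 and 9.65 and the pre-dawn values 9.74, 9.60 and 9.76. The 6 well-watered night arrays were the lowest of all 24, and every water-limited night array lay above every one of them.

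At pre-dawn ILR3 rose from 9.22 ± 0.08 to 9.70 ± 0.09 log2 (SD, n = 3), a change of 0.48 (SE 0.12, 95% interval 0.23 to 0.73, 1.39-fold higher, limma adjusted p = 0.0219). At midnight its means were 9.18 ± 0.03 and 9.50 ± 0.14 log2, a difference of 0.32 (SE 0.12, 1.25-fold higher) given without a test. ILR3 differed by −0.01 at midday (95% interval −0.27 to 0.24, adjusted p = 0.999) and by 0.15 at late day (95% interval −0.10 to 0.41, adjusted p = 0.759) in limma.

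Of the 4 members, 2 passed the test as lower and 1 as higher at pre-dawn, when 3.14% of all probe sets tested were called lower and 4.10% higher. At late day and at midday 0 of 4 members passed limma, where 0.210% and 0% of all probe sets were called. Before adjustment AT5G05250 was the only member under 0.05 at late day, where 9.1% of all probe sets were, and no member was at midday, where 4.97% were. The arrays of the regimes did not overlap for 3 members lower and 1 higher at midnight, beside 9.48% of all probe sets lower and 5.97% higher. Nothing can be read from the midnight count, since the midnight values chose members. At pre-dawn the counts were also 3 and 1, beside 14.3% and 17.5%.

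The pre-dawn calls were lost in several of the fits without 1 array, while the sizes of the differences changed little in these fits. Without well-watered pre-dawn replicate 1 or 3 or water-limited pre-dawn replicate 1 or 3, AT1G47400, AT5G05250 and ILR3 were each not past the threshold, and AT5G05250 was also not past it without well-watered replicate 2. Across the 24 fits that left out 1 array, the pre-dawn difference ran from −1.57 to −1.20 log2 for AT1G47400 (limma adjusted p 0.00747 to 0.103), from −0.72 to −0.62 for AT5G05250 (0.016 to 0.169), and from 0.45 to 0.53 for ILR3 (0.00908 to 0.127). Without those 4 arrays in turn, 186, 245, 91 and 114 probe sets passed at pre-dawn in the whole table, against 864 with all arrays and 1793 without water-limited pre-dawn replicate 2. At pre-dawn the 3-prime minus 5-prime difference of GAPDH lay between 1.58 and 1.64 log2 in water-limited and between 1.31 and 1.48 in well-watered rosettes. Those of actin, at 4.40 to 4.72 and 4.34 to 4.44, and of ubiquitin, at 1.06 to 1.14 and 1.11 to 1.23, overlapped between these regimes. With the differences of 3 such control genes as covariates, an alternative chosen after seeing the data, the pre-dawn difference was −1.27 for AT1G47400 (limma adjusted p = 0.142), −0.73 for AT5G05250 (adjusted p = 0.146) and 0.24 for ILR3 (adjusted p = 0.29). That of PYE was −0.35 (adjusted p = 0.442), against −0.58 without the covariates. At midnight the GAPDH ranges overlapped, with 1.49 to 1.60 log2 in water-limited and 1.39 to 1.64 in well-watered rosettes. The same measure for actin was 4.36, 4.08 and 5.19 log2 on the water-limited midnight arrays, of which replicate 3 had the highest value of all 24 arrays, and 4.39 to 4.62 on the well-watered ones. Without that replicate the midnight differences were −3.29, −1.42, −0.76 and 0.24 log2 for AT1G47400, AT5G05250, PYE and ILR3. With the covariates they were −3.01, −1.34, −1.11 and 0.31 for the same genes.

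**Figure D2:**
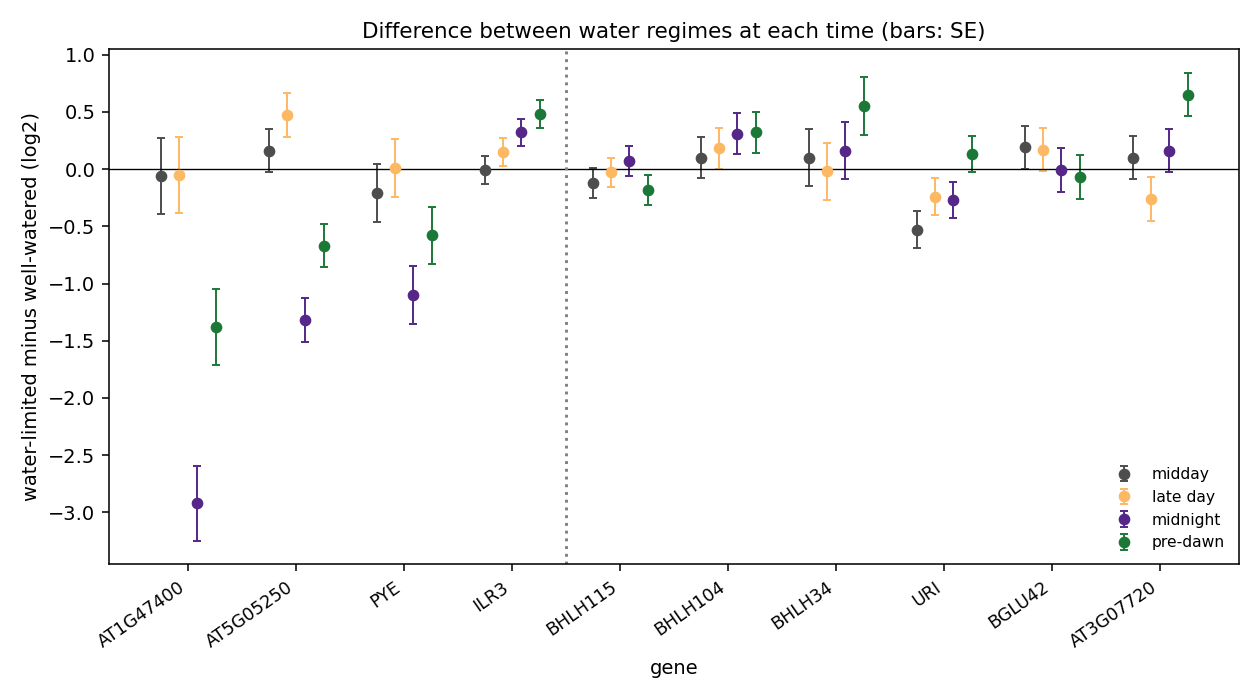
Difference between water-limited and well-watered rosettes (log2, vertical axis) at the 4 times for the 4 members, left of the dotted line, and 6 other iron genes, right of it; bars are the SE from the limma fit, with a spread shared by all groups. The midnight points of AT1G47400, AT5G05250 and PYE lie at −2.92, −1.32 and −1.10, while the other 6 genes lie between −0.27 and 0.31 at that time. The midnight difference chose AT1G47400 and AT5G05250, so this contrast with the other genes is not a test.

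The next comparison was between times of day within each regime, tested over midday, late day and pre-dawn. The midnight means did not enter these contrasts, but the midnight arrays did enter the shared spread. In well-watered rosettes AT5G05250 changed between 6.33 log2 (late day) and 7.71 (pre-dawn) (range of means 1.38, limma adjusted p = 1.44e-05), and so did PYE, between 5.98 and 7.06 at the same times (range 1.08, adjusted p = 0.00484). AT1G47400 had a range of 0.78 log2 (adjusted p = 0.122) and ILR3 of 0.29 (adjusted p = 0.0883) over these times in the same limma test. In water-limited rosettes AT1G47400 changed between a pre-dawn mean of 6.60 log2 and a midday mean of 8.08 (range 1.48, limma adjusted p = 0.00412), and AT5G05250 changed between 6.80 at late day and 7.49 at midday (range 0.69, adjusted p = 0.0146). PYE had a range of 0.49 log2 (adjusted p = 0.218) and ILR3 of 0.20 (adjusted p = 0.338) there. These are 2 of 4 members in each regime, against 42.1% of all probe sets in well-watered and 45.0% in water-limited rosettes. The AT5G05250 call under water limitation was lost without water-limited midday replicate 3 (adjusted p = 0.101) or water-limited late-day replicate 1 (adjusted p = 0.0515). With the control differences as covariates, the calls of AT1G47400 (adjusted p = 0.245) and AT5G05250 (adjusted p = 0.218) in water-limited rosettes were lost and PYE passed there (adjusted p = 0.0144), as did ILR3 in well-watered rosettes (adjusted p = 0.00589).

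With midnight included as a description and the times taken in clock order, the group means of the regimes parted between late day and midnight. Each step compares groups of separate arrays, and the order in which the times were sampled was not used. From late day to midnight the well-watered means of AT1G47400, AT5G05250 and PYE went up by 0.52, 0.71 and 0.30 log2. Over the same interval the water-limited means stepped by −2.36, −1.09 and −0.81 log2. From midnight to pre-dawn the water-limited means of AT1G47400 and AT5G05250 were higher again by 1.65 and 1.32 log2, and that of PYE was 6.48 after 5.18. The AT1G47400 and AT5G05250 means were higher still by 1.48 and 0.46 at midday, while the PYE mean stepped by −0.14. The ILR3 mean stepped by −0.32 log2 from late day to midnight with full watering and by −0.15 without water.

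In the order of group means, water-limited midnight was lowest for AT1G47400, AT5G05250 and PYE, and well-watered midnight was lowest for ILR3. For PYE the water-limited midnight group (mean 5.18 log2) overlapped with its next neighbour, well-watered late day (5.98), because of replicate 2 at 5.98. The highest group was well-watered midday for AT1G47400 (8.14 log2), well-watered pre-dawn for AT5G05250 (7.71) and PYE (7.06), and water-limited pre-dawn for ILR3 (9.70). Of the 7 pairs of neighbours in each order, 6 overlapped for AT1G47400, 5 for AT5G05250, 5 for PYE and 6 for ILR3. Sorting by mean places the closest groups side by side, so this overlap is a description and not a test.

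Across the 24 arrays, AT1G47400 values had a Pearson r of 0.77 with AT5G05250 and 0.63 with PYE, and AT5G05250 had 0.78 with PYE. ILR3 had r of −0.30, −0.22 and −0.33 with AT1G47400, AT5G05250 and PYE. These are descriptions over arrays that share the 8 groups and their processing, and they include the midnight arrays on which members were chosen. Over the 18 arrays without midnight, r was 0.46 between AT1G47400 and AT5G05250, 0.27 between AT1G47400 and PYE, and 0.71 between AT5G05250 and PYE. On those arrays ILR3 had r of −0.55, −0.38 and −0.53 with the same 3 genes. Once each array was taken relative to its group mean, r over all 24 arrays was 0.16, −0.21 and −0.14 for the first 3 pairs.

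The transcripts most like the members over the 24 arrays were sought among the 6289 other probe sets tested that were assigned to exactly 1 gene, with the midnight arrays included. For AT1G47400 they were AT1G49380 (Pearson r = 0.86), AT3G23700 (0.84), AT1G04420 (0.80), AT2G35410 (0.78) and AT3G13560 (0.77). The midnight differences of these 5 genes were −0.74, −0.59, −0.47, −0.34 and −0.29 log2, and their pre-dawn differences −0.46, −0.51, −0.22, −0.53 and −0.58. For AT5G05250 the most alike were AT1G35710 (r = 0.78) and AT5G07860 (0.77), for PYE they were AT3G07660 (0.83) and AT1G01320 (0.78), and for ILR3 they were AT2G38710 (0.88) and AT2G47710 (0.86). The midnight differences were −1.26 log2 for AT1G35710 and −0.60 for AT5G07860, and the pre-dawn ones −1.51 and −0.59. AT3G07660 differed by −0.88 log2 at midnight and −0.10 at pre-dawn, and AT1G01320 by −1.43 and −1.53. AT2G38710 differed by 0.42 and 0.40 log2 at these times, and AT2G47710 by 0.50 and 0.64.

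Whether other genes of iron homeostasis shared the night-time course was asked with 68 genes, the members included, in lists of bHLH regulators, ubiquitin ligases, IRON MAN peptides, reductases and importers, distribution and vacuolar transporters, coumarin synthesis, ferritins and other iron-deficiency-induced genes. Only 18 of the 68 had a probe set named for them alone, and 10 of these passed the filter on low values, the 4 members and 6 others. None of the reductases and importers, the distribution genes or the ferritins was among the named probe sets, so those branches were not analysed here.

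Among the relatives of ILR3, bHLH104 and bHLH34 had the same sign as ILR3 at both midnight and pre-dawn. The midnight difference of bHLH104 was 0.31 log2 (95% interval −0.06 to 0.69, limma adjusted p = 0.476) and its pre-dawn difference 0.32 (95% interval −0.05 to 0.69, adjusted p = 0.278). Its midnight values were 8.15, 8.79 and 8.68 log2 with full watering and 8.85, 8.91 and 8.79 under water limitation, and these did not overlap, although 8.79 stands in both after rounding. Such an upward separation at midnight was seen in 5.97% of all probe sets. The values of bHLH115 were 7.60, 7.42 and 7.75 log2 with full watering and 7.50, 7.73 and 7.76 under water limitation at midnight, an overlap with a difference of 0.07 (95% interval −0.19 to 0.34). At pre-dawn bHLH115 differed by −0.18 log2 (95% interval −0.44 to 0.09, limma adjusted p = 0.421), opposite in sign to ILR3. For bHLH34 the midnight difference was 0.16 log2 (95% interval −0.35 to 0.67) and the pre-dawn difference 0.55 (95% interval 0.04 to 1.07, adjusted p = 0.169 in limma). The well-watered pre-dawn values of bHLH34 were scattered, at 5.64, 4.71 and 4.13 log2. The direct partner of these factors, URI (bHLH121), which is needed for the response to iron shortage, had a difference of −0.53 log2 at midday (95% interval −0.86 to −0.19, limma adjusted p = 0.821) and −0.27 at midnight (95% interval −0.60 to 0.07).

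BGLU42, a beta-glucosidase that releases coumarins from their glucosides, differed by −0.01 log2 at midnight (95% interval −0.40 to 0.38) and by −0.07 at pre-dawn. AT3G07720 encodes a kelch-repeat protein and its transcript is induced by iron deficiency. It rose at pre-dawn, from values of 7.39, 7.51 and 7.31 log2 with full watering to 8.16, 7.61 and 8.37 in water-limited rosettes, a change of 0.65 (SE 0.19, 1.57-fold higher, limma adjusted p = 0.0452). Its pre-dawn arrays did not overlap (an upward separation seen in 17.5% of all probe sets), and its direction was opposite to that of AT1G47400, AT5G05250 and PYE. The call of AT3G07720 was lost in 11 of the 24 fits without 1 array. At midnight AT3G07720 differed by 0.16 log2 (95% interval −0.24 to 0.56).

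In all, 1 of the 6 other iron genes passed limma at pre-dawn, as higher, beside 4.10% of all probe sets. At midday, late day and midnight 0 of 6 passed limma, beside 0%, 0.210% and 0.386% of all probe sets. At an unadjusted p under 0.05 there were 1 at midday, 2 at pre-dawn and 0 at the times between, against 4.97% of all probe sets at midday, 24.3% at pre-dawn, 9.1% at late day and 13.3% at midnight. The median differences of the 6 genes from midday through late day and midnight to pre-dawn were 0.10, −0.03, 0.12 and 0.23 log2, beside medians over all probe sets tested of 0.039, 0.013, −0.024 and 0.026. Time of day changed bHLH34 (limma adjusted p = 0.000121 and 0.00398), URI (1.54e-06 and 0.00102) and BGLU42 (0.00044 and 0.00457) in well-watered and water-limited rosettes, bHLH115 in well-watered ones (0.0254), and AT3G07720 in water-limited ones (0.00245).

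**Figure D3:**
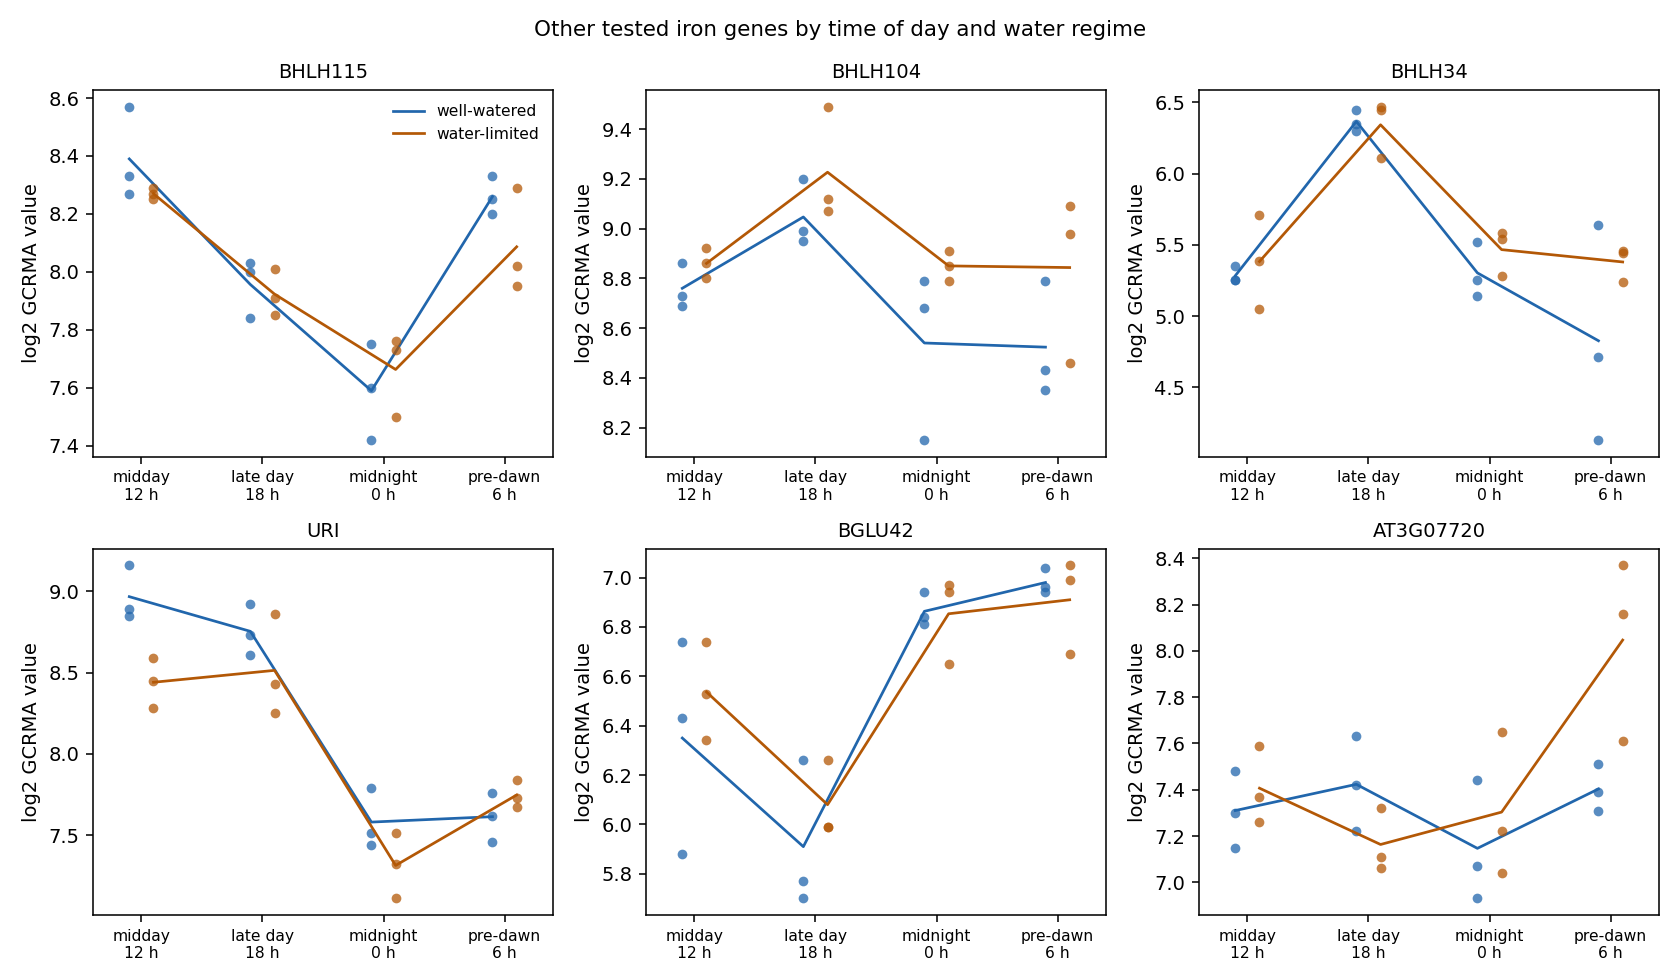
Log2 GCRMA value of the 6 other tested iron genes on every array (points, n = 3 per group) against time of day, with lines through the group means, in well-watered and water-limited rosettes. No gene has a midnight difference below −0.27 log2, and AT3G07720 is higher in water-limited rosettes at pre-dawn by 0.65; each panel has its own vertical scale.

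The other 8 genes with named probe sets stayed under the filter. BHLH101, a regulator strongly induced by iron deficiency in roots and leaves, ranged from 2.38 to 4.63 log2 over the 24 arrays. The probe sets of BHLH18, BHLH19, BHLH25 and of the coumarin hydroxylase genes F6'H1 and S8H had no value above 2.53 log2. The ubiquitin ligase genes BTSL1, with a pair of probe sets, and BTSL2 reached at most 3.30 and 3.08 log2. Differences of such low signals were not tested.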

How the data were processed

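The deposited table holds 1 log2 value per probe set and array for 22810 probe sets, computed by the authors with GCRMA, per the submitters' processing notes, in a version not given in the sources used here. Trizol extracts were biotin-labelled for hybridization, per the labels' protocols. No further normalization was applied. The 64 control probe sets were set aside, and a probe set was kept if at least 3 of the 24 arrays had 5 log2 or more. Names came from the platform annotation and, through gene identifiers, from the TAIR10.1 gene table, used for names and neighbours alone. Of the 22746 other probe sets, 13513 had exactly 1 gene, 503 several and 8730 none.

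limma 3.58.1 in R 4.3.3 fitted 1 mean for each of the 8 groups, with a spread shared by all (16 residual and 4.57 prior degrees of freedom), two-sided tests, and Benjamini-Hochberg adjustment over 11926 probe sets per contrast. The script was tested on simulated data. The members and gene lists were chosen with earlier results of these data known. Tested iron genes named besides the members were those past the threshold and up to 4 further examples per list by mean level. Also named were the probe sets of highest Pearson r with each member, the marker genes with a named probe set, the listed genes under the filter, and AT1G47395. No sequence of a member was used here. The number of arrays limits the precision, and p-values judge each difference against the spread between these arrays within groups, shared by all 8 groups.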

Additional observations from a re-analysis of the deposited data

Results flagged for a closer look

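The differences of AT5G05250 between regimes had opposite signs at different times. All 3 water-limited arrays lay above all 3 well-watered arrays at late day (difference 0.47 log2, limma adjusted p = 0.425, an upward separation seen in 7.29% of all probe sets) and below them at midnight (−1.32) and pre-dawn (−0.67). The difference between late day and midnight was not tested, because the midnight values chose the gene. The water effect at pre-dawn was −1.15 log2 (SE 0.26) relative to late day, which did not pass limma over all probe sets (adjusted p = 0.0692), where 0.210% of them passed. No other difference of water effects among midday, late day and pre-dawn passed for any member (adjusted p from 0.215 to 1).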

How the results depend on the processing

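The midnight differences of the 4 members kept their direction in every alternative run, and so did their pre-dawn differences. The pre-dawn calls did not all hold. With no filter on low values AT5G05250 was at −0.67 log2 (adjusted p = 0.061), 547 probe sets passed at pre-dawn and 11 at midday, and AT3G07720 did not pass (0 of 6 other iron genes). With the 6 pre-dawn arrays alone, AT1G47400 (−1.38, adjusted p = 0.0591), AT5G05250 (−0.67, 0.0591), ILR3 (0.48, 0.0745) and AT3G07720 (0 of 6) were not past the threshold. Fitted alone, the arrays gave 7 calls in limma at pre-dawn and 0 at both late day and midnight over all probe sets, with fewer arrays behind the spread. Quantile normalization also left 0 of 6 other iron genes. A mean of at least 6 log2 gave 11 calls at late day and 29 at midnight. The control covariates, added after seeing the data, gave 11 late-day, 127 midnight and 15 pre-dawn calls, −1.27, −0.73, −0.35 and 0.24 log2 at pre-dawn for AT1G47400, AT5G05250, PYE and ILR3, and 0 of 6 other iron genes.

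Same-numbered arrays of the regimes did not deviate together: the correlation of their deviations from the group means ran from −0.54 to 0.09 over 12 pairs, and 4 of 24 arrays correlated best with their own number. With the replicate block, 199 probe sets passed at pre-dawn, 13 at late day and 8 at midnight, 0 of 6 other iron genes passed, and AT5G05250 (−0.67, adjusted p = 0.0877) and ILR3 (0.48, 0.105) were not called at pre-dawn.

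Without single arrays the counts over all probe sets ran from 91 to 1793 at pre-dawn, 0 to 2 at midday, 11 to 33 at late day and 16 to 113 at midnight, and the other iron genes called at pre-dawn from 0 to 1. The pre-dawn difference ran from −1.57 to −1.20 for AT1G47400, −0.72 to −0.62 for AT5G05250, −0.68 to −0.49 for PYE (past the threshold once, adjusted p = 0.0484, without water-limited midnight replicate 2) and 0.45 to 0.53 for ILR3. AT1G47400 passed between times in well-watered rosettes when these were fitted alone (adjusted p = 0.0384), and ILR3 with no filter (0.0417). The cause of these shifts was not tested.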
